A study of Sus scrofa with 24 samples.

Results

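The centrosome, cilium and kinesin genes were followed across the longissimus dorsi muscle (LDM), the long back muscle, of 24 pig fetuses at 63 dpc (days post conception). Members were all probe sets whose platform gene symbol was CEP, IFT or BBS with a number, KIF with a number and any letters after it, or PCM1. This gave 140 probe sets of 67 genes, out of 13755 named genes on the array. The fetuses were F2 animals of a German Landrace and Pietrain cross, without any treatment, and total RNA of each was run on 1 Porcine Snowball array (Affymetrix). The aim of the study was to compare growth restricted (IUGR) fetuses with fetuses of weight appropriate for gestational age (AGA), but the deposited labels place no fetus in either group. No weight groups were therefore compared, and each gene is described over the 24 fetuses, which are called by number. According to the methods of the study they were sibs from several litters that share a sire and were chosen for extremes of weight, so the spreads hold differences of weight, sex and litter and the fetuses are not fully independent. P-values measure only relations among these 24 arrays.

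The centrosome organizes the microtubules of a dividing cell, and its older centriole can dock at the cell surface and grow a primary cilium. Intraflagellar transport (IFT) particles carry cargo along the cilium, the BBSome, an assembly of BBS proteins, sorts its membrane proteins, and kinesins (KIF) are motors that walk along microtubules or take them apart. When myoblasts leave the cell cycle and fuse into myotubes, PCM1 and other pericentriolar proteins move to the envelope of the muscle nuclei, and kinesin-1 with the heavy chain KIF5B spaces these nuclei along the fibre. This is background from cultured muscle cells and mice.

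Values are robust multichip average (RMA) signals on the log2 scale, where a difference of 1 is a doubling. A probe set was kept when it lay above its array's median in at least 80% of arrays, that is in 20 of 24. This left 76 probe sets and 42 genes of the 67, and the probe set of highest median signal stood for its gene. KIF2C passed with 20 arrays, whereas CEP57 stayed out with 18 arrays and KIF26B and CEP63 with 16 each. The 25 genes that stayed out, with medians of their brightest probe set from 3.35 to 6.87, were the centriolar CEP135, CEP152, CEP57, CEP63 and CEP72, the cilium base genes CEP290 and CEP78, CEP55, CEP70, IFT74, IFT80, BBS2, BBS5, BBS10 and the kinesins KIF20B, KIF21A, KIF5A, KIF5C, KIF3A, KIF6, KIF9, KIF19, KIF26A, KIF26B and KIF2B. Passing the filter is no proof of expression. Background controls match no transcript, and their median ran from 1.84 at 3 G or C bases through 6.36 at 16 to 9.71 at 24. Only KIF2A among the 42 had a median above 9.71, against 1282 of all 9710 genes that passed. The lowest median among the 42, 6.85 for KIF14, lay above that of the controls with 16 G or C bases. The G or C content of the members' probes was not known, so matched controls could not be chosen.

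The tissue carried its own defining markers. Of the 10 skeletal muscle markers 7 were measured, and their gene medians ran from 12.6 to 13.5, while MYH3, MYH8 and MYOG had no named probe set that passed. The mean level of these 7 markers ran only from 13.02 in fetus 274 to 13.26 in fetus 324. Array medians lay between 6.61 and 6.73. Correlated with each other array over genes, fetus 338 had the lowest median, 0.946, and fetus 363 the highest, 0.980, and fetus 338 held the highest value of many of the genes below.

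Spread over fetuses was measured as the span, the 90th minus the 10th percentile in log2 units. The 42 members had a median span of 0.39, and all 9710 genes one of 0.42. Of the members, 20 lay above the median gene, and spans ran from 0.23 for KIF13B, a motor of vesicle transport, to 1.36 for PCM1, the scaffold of the centriolar satellites around the centrosome. A span of at least 1 was reached by 3 members (7.14%), PCM1, CEP170 and KIF5B, against 2.22% of all genes.

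PCM1 ran from 8.58 in fetus 313 over a median of 9.30 to 10.43 in fetus 338, and its span of 1.36 is a 2.57-fold difference. Its values formed a continuous series without separate clusters, with fetuses 338, 320, 311, 360 and 329 at the upper end and 313, 307, 283, 272 and 340 at the lower end. The order by PCM1 nearly followed the weight groups listed by the study. It lists every fetus from rank 1 (338) down to rank 10 (312, at 9.475) as IUGR. Every fetus from rank 16 (327, at 9.106) down to rank 24 (313) is listed as AGA. Between them, 352, 363 and 297 are listed as AGA, and 384 and 281 as IUGR. That listing is not part of the deposited labels and entered no test. Any difference between the listed groups is therefore mixed into the relations with PCM1 below and was not separated or tested. A second PCM1 probe set that passed the filter followed the first at r = 0.963 and had a span of 1.25. Of those that did not pass, the brighter had r = 0.844 and a span of 1.16, and the dimmer r = 0.209 and a span of 0.49. With the mean of all 4 probe sets the span of PCM1 was 0.99.

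KIF5B, the heavy chain of the main cargo motor kinesin-1, ran from 8.76 in fetus 283 over a median of 9.39 to 10.43 in fetus 338, with a span of 1.12. CEP170, which sits on the appendages of the mother centriole, ran from 8.55 in fetus 272 over a median of 9.46 to 10.40 in fetus 338, with a span of 1.15. The upper end of both genes was the same as that of PCM1: all 5 of its highest fetuses were among the 5 highest for KIF5B and for CEP170, and 4 of its 5 lowest fetuses were among their 5 lowest. KIF5B had a single probe set. For CEP170 the next brightest probe set had a span of 0.54, so that its wide spread rests on 1 probe set. The mean of all its probe sets had a span of 0.42, but it takes in a dim probe set, of median 2.33, that did not pass the filter.

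**Figure D1:**
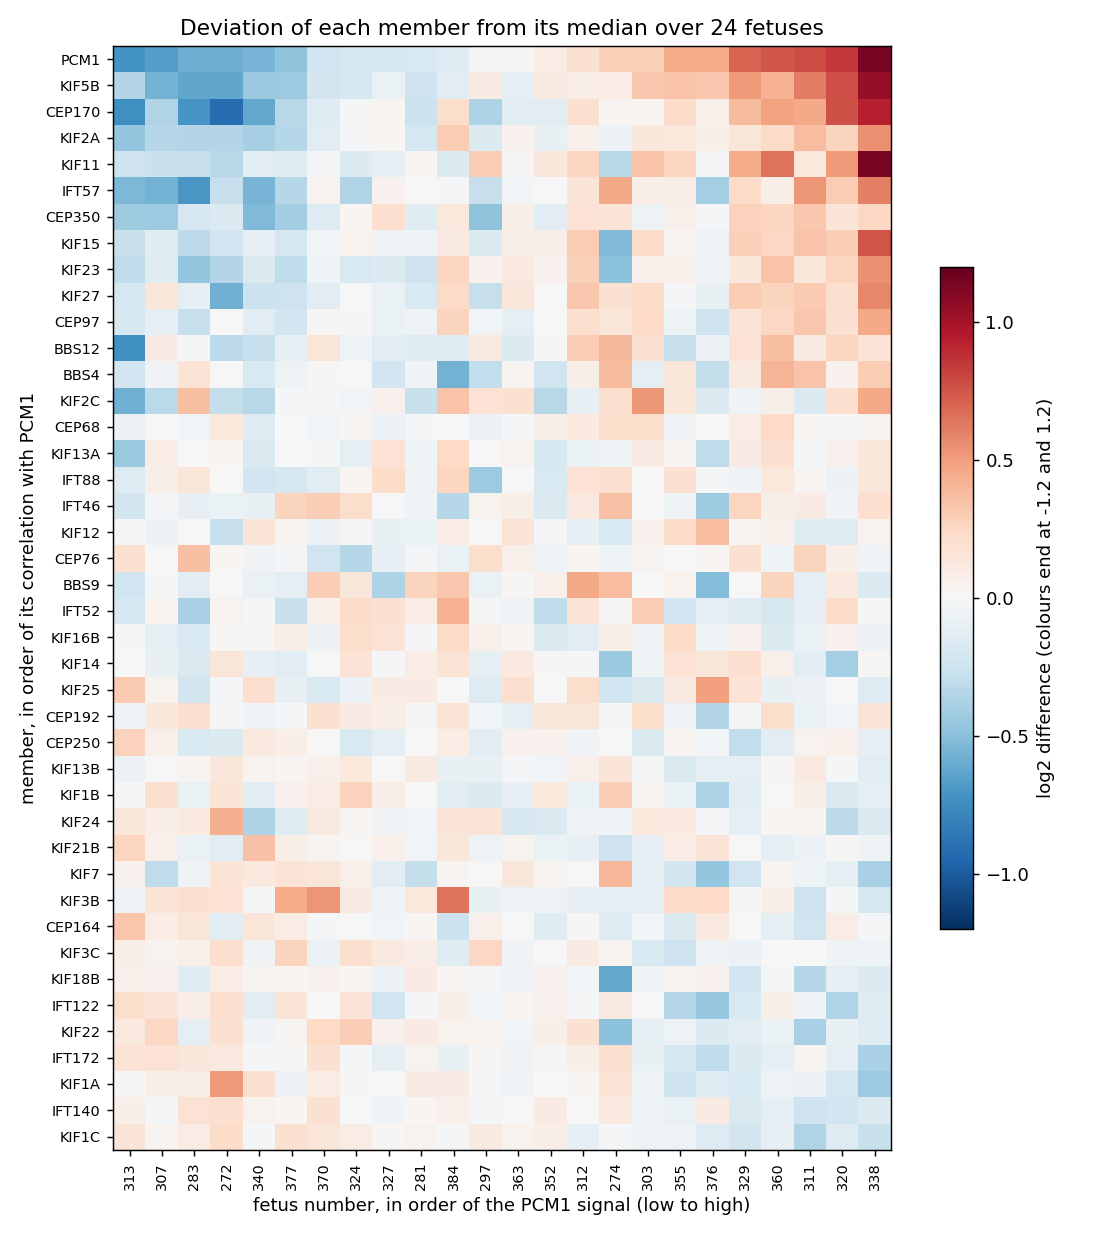
Log2 difference of each of the 42 measured members from its own median, with fetuses along the horizontal axis in order of PCM1 signal and genes down the page in order of their correlation with PCM1. The uppermost rows, from KIF5B (r = 0.974) and CEP170 (r = 0.915) on, turn from blue at the left to red in fetus 338 at the right, most of the middle rows show no such order, and the lowest rows, down to KIF1C (r = -0.847), run the opposite way.

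Of the 11 centriolar and pericentriolar genes 6 were measured, and 2 of these, PCM1 and CEP97, spread wider than the median gene. CEP97, which caps centrioles together with CCP110 and holds back cilium growth, spanned 0.48, from 7.10 in fetus 283 up to 7.83 in fetus 338. CEP76, which limits centriole duplication, spanned 0.29. The spans of CEP250 and CEP68, parts of the linker that ties the 2 centrioles together, were 0.27 and 0.26, and CEP192, which recruits pericentriolar material, also had 0.26. Probe sets of CEP68 disagreed in width: the next brightest, of nearly the same median (8.22 against 8.24), had a span of 0.86. CEP164, needed for docking of the centriole and the only measured gene of the cilium base, ran from 7.09 in fetus 384 to 7.69 in fetus 313 with a span of 0.31. CEP350, which anchors microtubules at the centriole, ran from 8.54 in fetus 340 to 9.39 in fetus 311 with a span of 0.69.

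**Figure D2:**
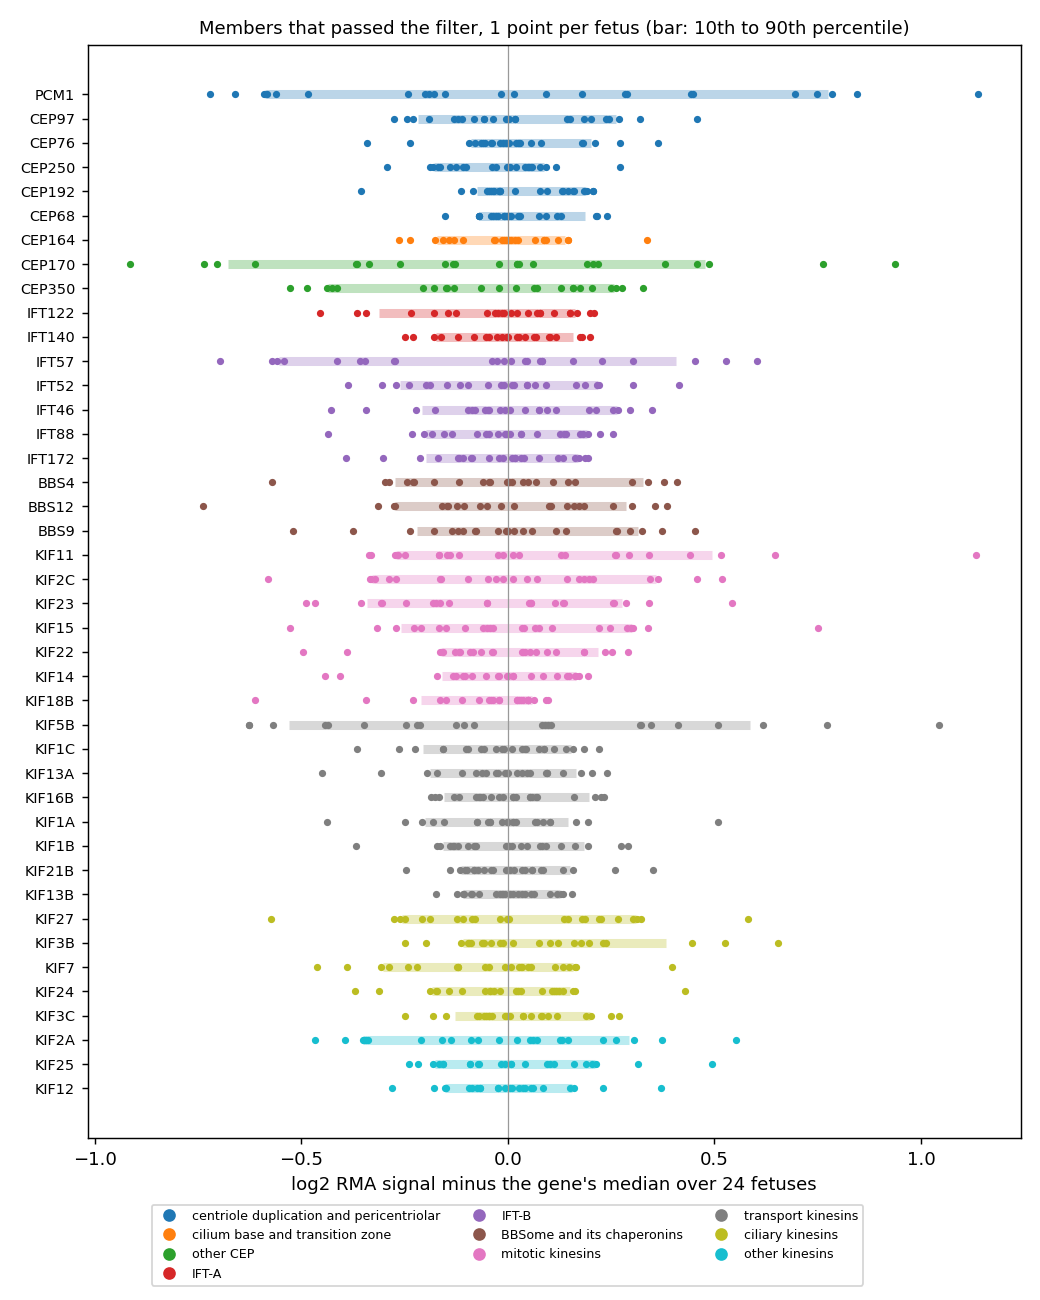
Log2 RMA signal of each measured member minus its median over the 24 fetuses, 1 point per fetus and 1 row per gene, coloured by role group, with a pale bar from the 10th to the 90th percentile. The bars of PCM1 (1.36), CEP170 (1.15) and KIF5B (1.12) are the longest, while most genes keep within 0.5 of their median.

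Intraflagellar transport genes differed among themselves. IFT57, a peripheral subunit of the IFT-B particle that moves outward along the cilium, had the widest span of the IFT genes, 0.96. It ran from 6.67 in fetus 283 over a median of 7.36 to 7.97 in fetus 338, with 4 of its 5 highest fetuses shared with PCM1. The core IFT-B genes IFT52, IFT46 and IFT88 had spans of 0.48, 0.47 and 0.39, and IFT172 one of 0.37. IFT122 and IFT140, of the IFT-A particle of the return path, had spans of 0.47 and 0.33. IFT122 was lowest in fetus 376, at 8.08, and highest in fetus 313, at 8.74, so that the fetus with the least PCM1 had the most IFT122.

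All 3 measured BBS genes spread wider than the median gene, while 3 others did not pass the filter. BBS4, a subunit of the BBSome, ran from 7.30 in fetus 384 to 8.28 in fetus 360 with a span of 0.60. BBS12, one of the chaperonin-like proteins that help the BBSome to assemble, ran from 6.38 in fetus 313 to 7.50 in fetus 274 with a span of 0.56. BBS9, another subunit, ran from 7.48 in fetus 376 to 8.45 in fetus 312 with a span of 0.53. The 3 genes had their highest and lowest values in different fetuses.

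Of the 8 mitotic kinesins 7 were measured, with a median span of 0.56. KIF11, the motor that pushes the spindle poles apart, ran from 7.49 in fetus 274 over a median of 7.83 to 8.96 in fetus 338, and its span was 0.76. KIF2C, which takes microtubules apart at the kinetochore, spanned 0.69, from 6.37 in fetus 313 up to 7.47 in fetus 303. KIF23, a motor of cytokinesis, spanned 0.62, and KIF15, a second spindle motor, 0.56, both lowest in fetus 274 and highest in fetus 338. KIF22, a motor that binds chromosome arms, ran from 7.29 in fetus 274 to 8.08 in fetus 324 with a span of 0.38. KIF18B, which limits the growth of microtubule tips, had a span of only 0.27, but its lowest value, 7.27 in fetus 274, lay far below its median of 7.88.

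Transport kinesins apart from KIF5B were narrow. Over the 8 of 11 that were measured, KIF5B included, the median span was 0.35. KIF1C spanned 0.36, and KIF13A and KIF16B, motors of endosomes, 0.35 each. KIF1A, the axonal motor of synaptic vesicle precursors, ran from 7.25 in fetus 338 to 8.19 in fetus 272, opposite in direction to KIF5B. KIF21B spanned 0.26. KIF1B spanned 0.34 by its brightest probe set but 0.98 by the next, and these probe sets did not move together (r = -0.092). Agreement between the brightest and next probe set was also low for IFT52 (r = 0.209), CEP250 (r = 0.233) and KIF13A (r = 0.298), and over the 19 members with at least 2 probe sets that passed its median was 0.526. The values of these 4 genes therefore depend on the probe set chosen, and they are not the only ones. Dimmer probe sets that passed also disagreed with the brightest, for example in IFT172 (r = -0.085 and -0.236), KIF13B (-0.280), CEP170 (-0.011) and KIF24 (0.070).

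Ciliary kinesins had 5 of 9 genes measured. KIF27, a relative of KIF7, ran from 7.03 in fetus 272 to 8.18 in fetus 338 with a span of 0.57. KIF3B, a motor subunit of the kinesin-2 that drives IFT, spanned 0.49, and its highest values, 8.14, 8.02 and 7.94, were in fetuses 384, 370 and 377, none of which was high in PCM1. KIF7, which works at the cilium tip in Hedgehog signalling, spanned 0.46, KIF24, which acts with CEP97 at the centriole, 0.33, and KIF3C 0.33. Of the remaining kinesins KIF2A, which takes microtubules apart, was the most variable, from 9.26 in fetus 313 over a median of 9.72 to 10.28 in fetus 338. Its span was 0.64, and 0.99 with the mean of its probe sets, which followed each other closely (r = 0.919 for the next brightest). KIF25 and KIF12 spanned 0.39 and 0.31.

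To see which members moved with PCM1, the signal of each gene was fitted on PCM1 over the 24 fetuses with limma. PCM1 was chosen for this fit after its span had been seen. Of the 41 other members 13 were higher where PCM1 was higher (31.7%), against 21% of all genes tested, and 7 were lower (17.1%), against 35.5% of all genes. The rest, 21 members, did not pass the threshold. Since most of the genes tested moved with PCM1 in this sense, the calls alone do not set the members apart.

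KIF5B followed PCM1 most closely, with a slope of 0.82 ± 0.045 log2 units per log2 unit of PCM1 (SE, limma, adjusted p = 7.9e-14), and CEP170 had a slope of 0.79 ± 0.070 (SE, limma, adjusted p = 2.2e-10). The mitotic kinesins KIF11, KIF15, KIF23 and KIF2C were higher with PCM1, with slopes of 0.55, 0.37, 0.36 and 0.23, whereas the mitotic kinesins KIF22 and KIF18B were lower, with slopes of -0.21 and -0.14. IFT57 was higher, with a slope of 0.54, whereas IFT122, IFT172 and IFT140 were lower, with slopes of -0.19, -0.19 and -0.16. IFT46, IFT52 and IFT88 were not called. The further genes that were higher with PCM1 were KIF2A (0.45), CEP350 (0.38), KIF27 (0.35), BBS12 (0.28), CEP97 (0.26) and BBS4 (0.22), and the further genes that were lower were the transport kinesins KIF1A (-0.24) and KIF1C (-0.23). Without fetus 338 the calls of BBS4, KIF2C and KIF18B were lost, which left 11 members higher, against 19.5% of all genes, and 6 lower, against 29.7%. With the mean of probe sets 15 members were higher, against 22.8% of all genes, and 10 lower, against 36.5%. The call of IFT140 was then lost, while CEP68 (0.55) and KIF1B (0.28) were newly called higher.

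The background controls rich in G or C moved with the same fetuses. Averaged over the 39 controls rich in G or C (at least 13 such bases), their signal was lowest in fetus 338, at 7.30, and highest in fetus 313, at 7.94, the fetuses at the upper and lower end of PCM1. The study lists 338 as IUGR and 313 as AGA. Any difference between the listed groups in this mean was not separated or tested either. Fitted on this mean, 16 members were lower where the controls were brighter (38.1%), against 22.7% of all genes, and 4 were higher (9.52%), against 20.8% of all genes. PCM1 had a slope of -2.79 ± 0.49 (SE, limma, adjusted p = 0.00012), CEP170 of -2.60, KIF5B of -2.27 and IFT57 of -1.87 log2 units per log2 unit of the control mean. The 4 higher members were KIF1A (0.71), KIF1C (0.58), IFT140 (0.57) and KIF21B (0.47). Without fetus 338 KIF1A and KIF1C were no longer called, which left 2 higher members, against 11.3% of all genes. The calls of KIF23 and KIF2C were lost as well, which left 14 lower members, against 20.4%. The mean of the controls with under 13 G or C bases was lowest in fetus 329, at 1.99, and highest in fetus 283, at 2.84. Fitted on that mean, 5 members were lower, against 8.38% of all genes, and 3 higher, against 9.66%. Of the 20 calls 6 held in the same direction, among them PCM1, KIF5B and CEP170.

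With the control mean as a second term in the fit on PCM1, 9 members were still higher with PCM1, against 13.5% of all genes, and 7 were lower, against 29.3%. Of the 20 calls 14 held in the same direction, among them KIF5B, CEP170, KIF11, IFT57 and KIF2A, and those of BBS12, BBS4, CEP97, KIF2C, IFT140 and KIF18B were lost. Among the 7 lower members 2 had not been called before, KIF1B with a slope of -0.24 and CEP192 with -0.17 (limma, adjusted p = 0.015 and 0.049). The direction of KIF1B depends on the probe sets used. With the mean of probe sets and no second term it was higher with PCM1, with a slope of 0.28 (limma, adjusted p = 0.00091). With the control mean regressed out of every probe set, no member kept a span of at least 1, against 0.512% of all genes, and the span of PCM1 was 0.81, of KIF5B 0.70 and of CEP170 0.65.

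**Figure D3:**
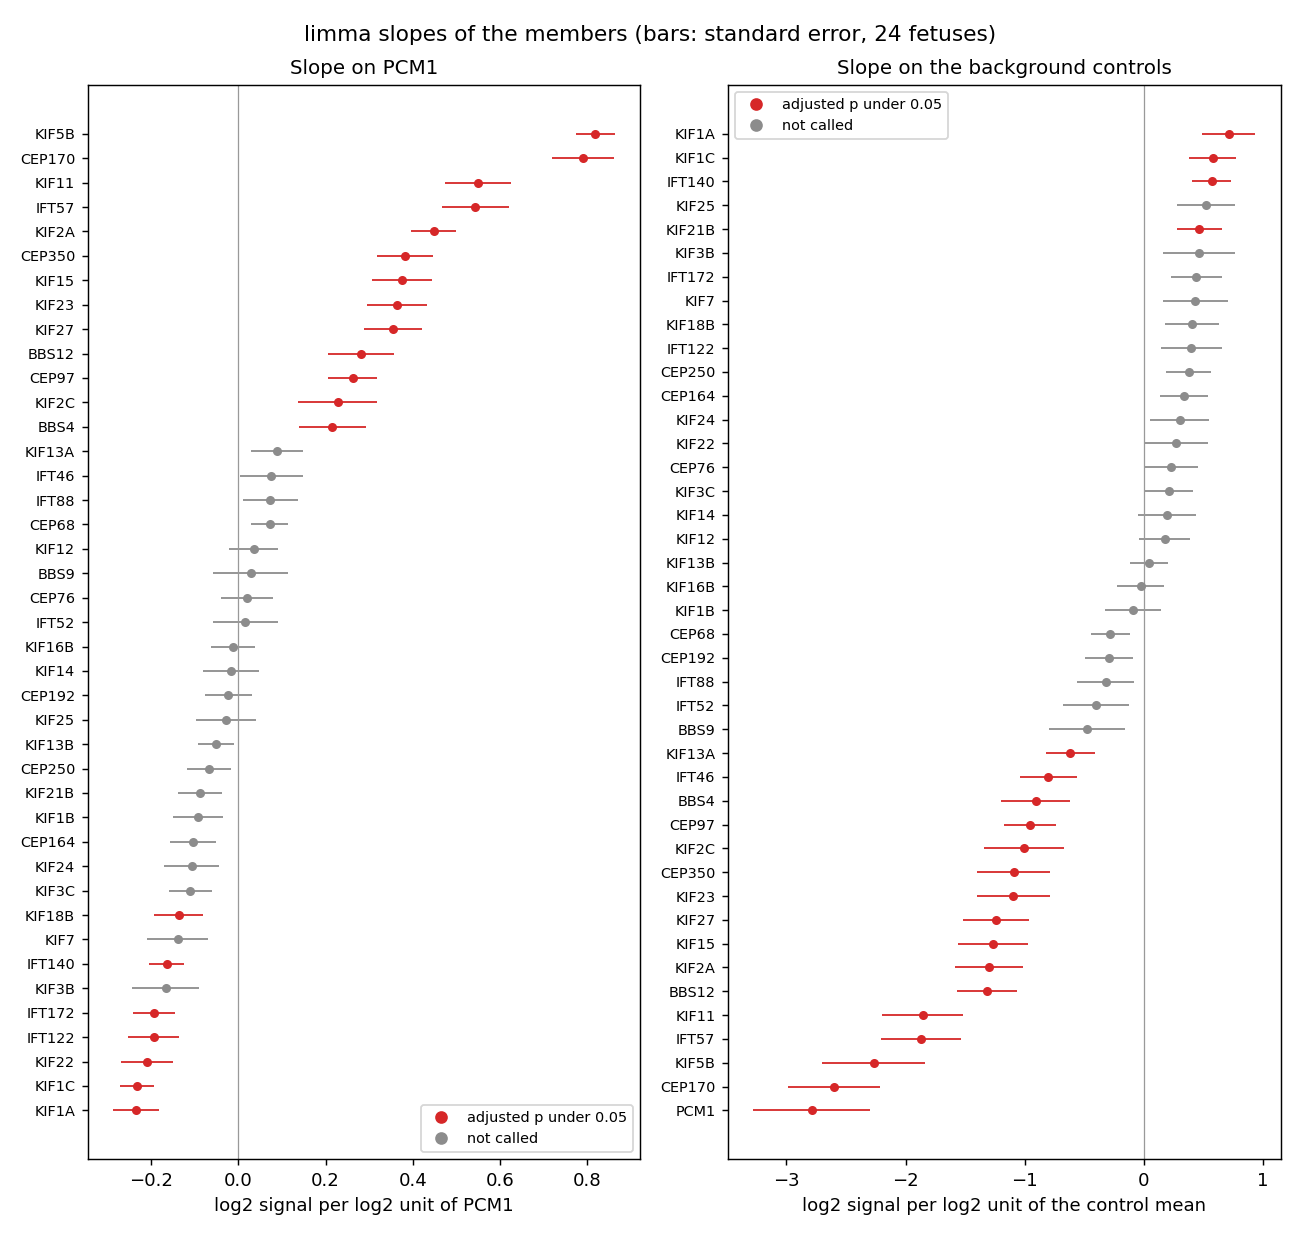
Slopes of the members, in log2 signal per log2 unit of PCM1 (left, 41 genes) and per log2 unit of the mean background control (right, 42 genes), with bars for the standard error over 24 fetuses and red points for an adjusted p under 0.05 in limma. KIF5B (0.82) and CEP170 (0.79) lead on the left, and these genes and PCM1 (-2.79) lie lowest on the right.

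Partners of a complex or structure were also compared in pairs. Of 11 pairs listed, 4 had both genes measured, and their p-values were adjusted over these 4. PCM1 and KIF5B were correlated at r = 0.974 and rho = 0.963 (permutation p = 1e-05 each, the smallest that 100000 permutations can give, adjusted p = 1.33e-05, n = 24). Without the 2 fetuses farthest from the PCM1 median r was 0.966. Among 9709 genes KIF5B ranked 5 by its correlation with PCM1. The centrosomal and Golgi anchoring protein gene AKAP9, which is no CEP, IFT, BBS or KIF gene, was correlated with PCM1 at r = 0.917 and rho = 0.903 (permutation p = 1e-05 each, adjusted p = 1.33e-05). Without the 2 farthest fetuses r was 0.881. Over all 24 fetuses AKAP9 ranked 198 among the same genes.

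KIF11 and KIF23, motors of early and late mitosis, were correlated at r = 0.842 and rho = 0.799 (permutation p = 1e-05 each, adjusted p = 1.33e-05), with r = 0.768 without the 2 farthest fetuses, and KIF23 ranked 25 among 9709 genes. IFT88 and IFT52, which share the core of the IFT-B particle, were not called: r was 0.248 (permutation p = 0.245, adjusted p = 0.245) and rho 0.263 (permutation p = 0.217, adjusted p = 0.217), with r = 0.165 without the 2 farthest fetuses. At 24 fetuses a weak relation between these genes would not be detectable. Over all 861 pairs of members the median r was 0.0036, against 0.025 over pairs of all genes. An r over 0.8 was found in 23 pairs (2.67%), against 0.978% of pairs of all genes, and an r under -0.8 in 4 pairs (0.465%), against 0.133%.

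**Figure D4:**
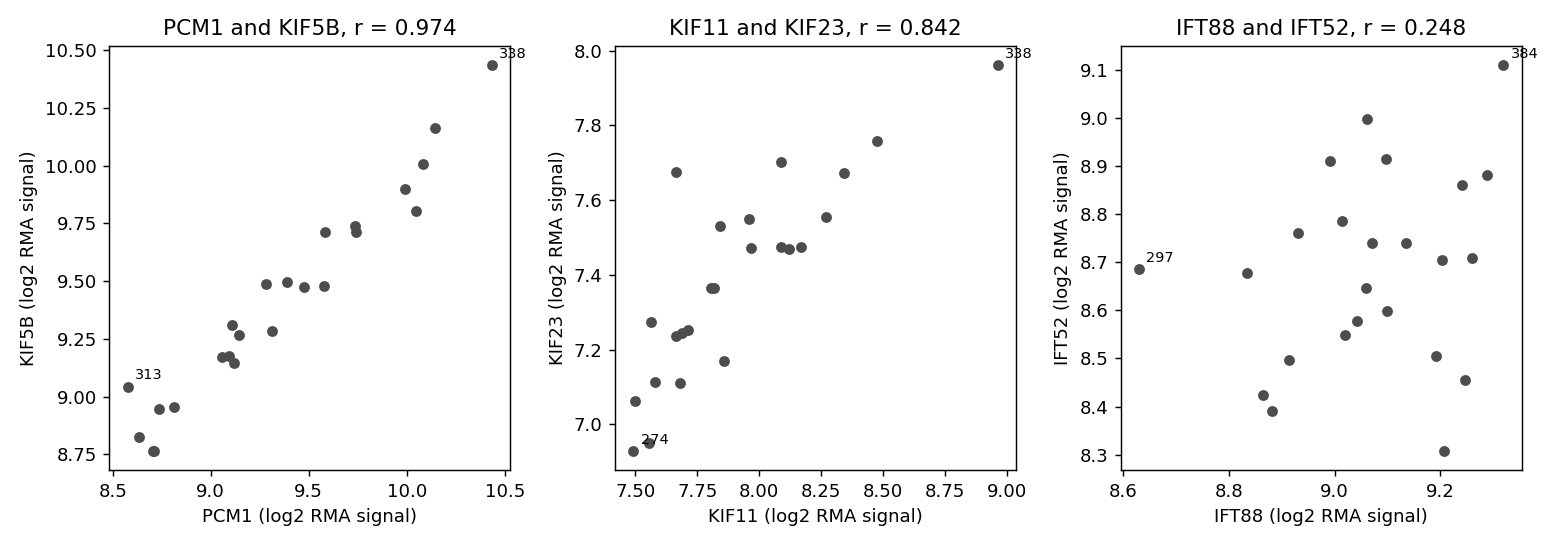
Log2 RMA signals of 3 gene pairs, 1 point per fetus, with some fetuses at the ends labelled by number. PCM1 and KIF5B lie along a line (r = 0.974), KIF11 and KIF23 follow each other with more scatter (r = 0.842), and IFT88 and IFT52 show little order (r = 0.248).

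Because several kinesins work only in dividing cells, members were fitted on a cell cycle index, the mean gene-centred log2 signal of 22 replication and mitosis genes that include no member. In bulk tissue, fewer dividing cells and less RNA per dividing cell cannot be told apart. The index was -0.45 in fetus 274 and -0.24 in fetus 376, the next lowest, with a median of 0.032 and a highest value of 0.20 in fetus 370. KIF22 was the only member called, higher with the index (2.38%), against 0.464% of all genes, with a slope of 1.06 ± 0.21 log2 units per unit of the index (SE, limma, adjusted p = 0.012). No member was lower, against 0% of all genes, and 4 members (9.52%) had an unadjusted p under 0.05, against 11.9% of all genes. These were KIF22, KIF18B, CEP192 and KIF14, the last a motor of cytokinesis added here for its value. KIF18B had a slope of 0.79 ± 0.21 (SE, limma, adjusted p = 0.095). KIF11 and KIF23 were not called, with slopes of 0.63 ± 0.50 and 0.64 ± 0.37 (SE, limma, adjusted p = 0.65 and 0.52).

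These calls changed when fetus 274, which lay apart on the index, was left out. Without it the slope of KIF22 was nearly the same, 1.05 ± 0.31, but it was no longer called (SE, limma, adjusted p = 0.069), and KIF18B had a slope of 0.32 ± 0.27 (SE, limma, adjusted p = 0.50). CEP192 was then the only member called, with a slope of 1.05 ± 0.25 (SE, limma, adjusted p = 0.0345), against 1.2% of all genes. With the control mean as a second term KIF22 and KIF18B were both called (limma, adjusted p = 0.0024 and 0.013), against 2.05% of all genes. Among the index genes themselves 3 were higher with PCM1 (13.6%), TOP2A, BUB1B and PCNA, and 11 were lower (50%), against the 21% and 35.5% of all genes.

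**Figure D5:**
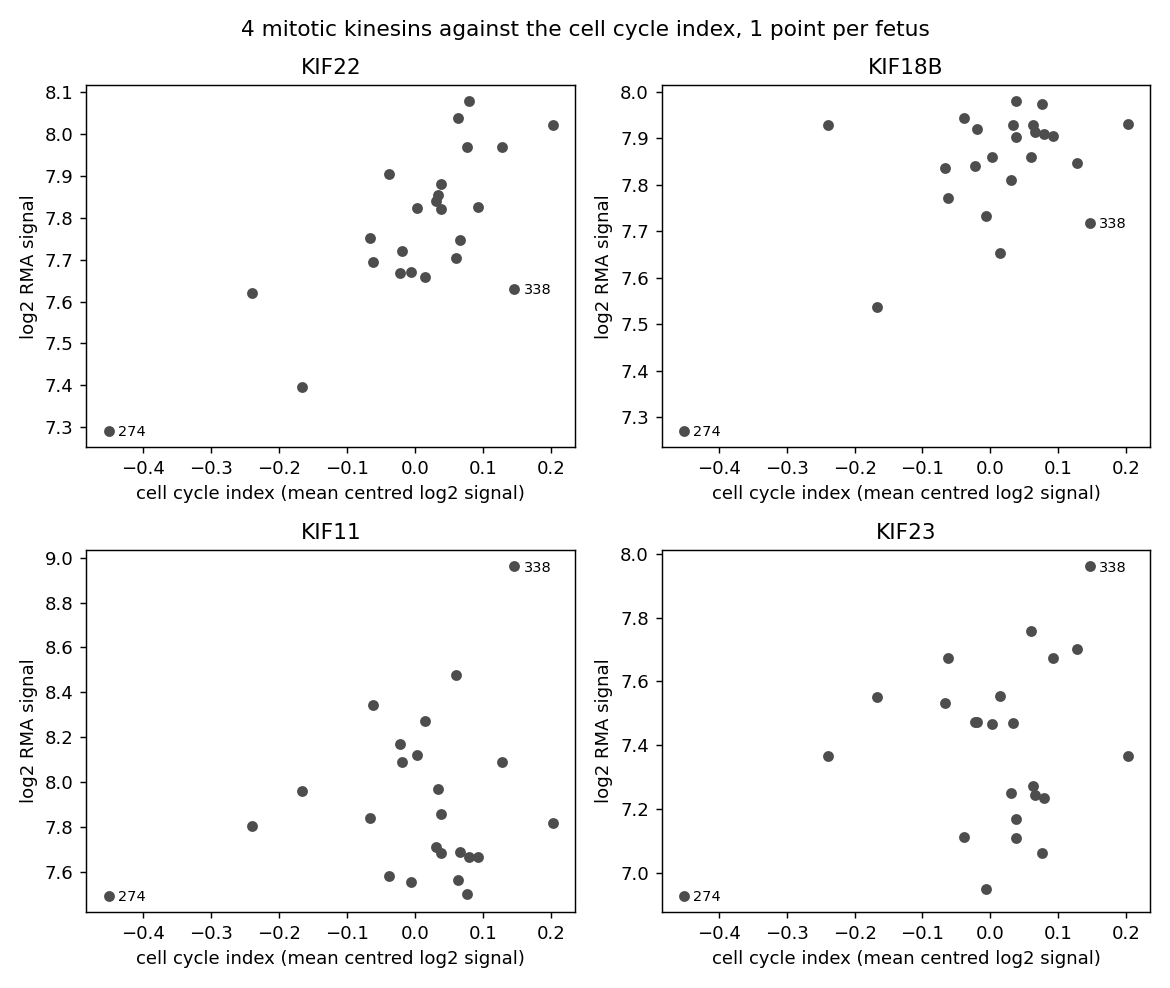
Log2 RMA signal of KIF22, KIF18B, KIF11 and KIF23 against the cell cycle index (mean centred log2 signal of 22 genes), 1 point per fetus. KIF22 increases along the index while fetus 274, at -0.45, lies apart at the lower left, and KIF11 and KIF23 are highest in fetus 338 rather than along the index.

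Related genes outside the symbol families were looked at for the same measures. Of 56 other cilium and centrosome genes 39 were measured, with a median span of 0.38 and none of at least 1. In limma 11 of them were higher with PCM1 (28.2%) and 10 lower (25.6%), against 21% and 35.5% of all genes, the shares against which the counts in the following lists stand too. The widest were AKAP9 (0.94), the transition zone gene RPGRIP1L (0.92) and NIN (0.84), whose product ninein anchors microtubules, and all 3 were highest in fetus 338 and higher with PCM1, with slopes of 0.72, 0.58 and 0.58. NEK2, a kinase that parts the centrioles before mitosis, was the only one called on the cell cycle index, with a slope of 1.35 ± 0.22 (SE, limma, adjusted p = 0.00093). It was picked for this value and was lowest in fetus 274.

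Of 14 kinesin partners 10 were measured, 2 higher and 2 lower with PCM1 (20% each). KIFAP3, the third subunit of kinesin-2, had the widest span of them, 0.73, and was higher with PCM1 with a slope of 0.48. TRAK1, which couples kinesin-1 to mitochondria, had a span of 0.44 and was lower with a slope of -0.22, and the kinesin light chain gene KLC3 had a span of 0.44 and was not called. Cilia relay Hedgehog signals, and of 14 Hedgehog genes 9 were measured, none higher and 5 lower with PCM1 (55.6%). Their widest spans were those of the coreceptor gene BOC (0.51), the receptor gene PTCH1 (0.45) and the inhibitor gene SUFU (0.42), of which SUFU was lower with PCM1, with a slope of -0.21. Among 4 measured nuclear envelope genes SYNE2, which links the nucleus to motors, had a span of 0.58 and was higher with PCM1, with a slope of 0.40, whereas LMNA and SUN2, with spans of 0.50 and 0.30, were lower, with slopes of -0.33 and -0.16.

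Markers of other cells were measured at varied levels beside these results. Gene medians of the leukocyte (6.9 to 8.4), nerve (7.5 to 8.4) and motile cilium markers (7.7 to 8.7) lay within the range of the background controls. Presence of these cells is therefore not shown. Of the fibroblast markers all 5 were measured, with gene medians from 9.99 to 13.3, and their mean level ran from 12 in fetus 283 to 12.51 in fetus 320. They were higher with PCM1 in 3 of 5 genes and lower in none, and their part in the PCM1 relations was not tested. Endothelial markers were measured for 5 of 6 genes (1 higher and 3 lower with PCM1), leukocyte markers for 3 of 6 (none called) and nerve markers for 4 of 6 (1 lower). Of the skeletal muscle markers 1 was higher and 3 were lower. Of 6 markers of cells with motile cilia only FOXJ1 and CCDC39 passed the filter, and RSPH1, DNAH9, TEKT1 and HYDIN did not. CCDC39, with 7.02 in fetus 313 and 8.72 in fetus 338 as its extremes, was higher with PCM1, with a slope of 0.73. FOXJ1, with 8.24 in fetus 274 and 9.01 in fetus 376, was not called, with a slope of -0.07 (limma, adjusted p = 0.36).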

How the data were processed

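The authors ran 1 Affymetrix Porcine Snowball array per fetus, normalized the arrays by RMA in Expression Console and deposited log2 values, 1 per probe set and fetus. The submitters' processing notes name GCOS 1.1.1. RMA equalizes the probe signals of the arrays, which can shift probe sets that did not change. Values ran from 0.78 to 14.62 over 47845 probe sets, 123 of them controls, and no 2 arrays held identical values. The platform annotation gave 1 gene symbol to 26426 probe sets and none to 21296 others. No build behind the array's probe annotation is named in the sources used here. The number of arrays limits the precision.

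Genes were fitted with limma 3.58.1 (lmFit and eBayes) in R 4.3.3, each gene on 1 covariate over all 24 fetuses, with Benjamini-Hochberg adjustment over all genes tested and a threshold of 0.05. The script was tested on simulated data. Pairs were tested in Python 3.11.15 with scipy 1.17.1 by 100000 permutations, 2-sided. Clusters were looked for as a gap wider than 0.3 times the whole range that left 4 or more fetuses on either side. No fit of weight group, sex and dam, as in the study, was made, since the labels hold none of these.

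Members and lists were chosen with earlier results of these data known. Named genes were the 4 widest and the narrowest of each role group, members called on the cell cycle index, the 4 of largest slope in each direction on the controls, genes of the pairs, the 3 widest of each other list, and the 4 with least agreement between probe sets. KIF14, NEK2, CCDC39, FOXJ1, TOP2A, BUB1B, PCNA and the further members called on PCM1 were named after their values were seen. Alternatives were the mean of a gene's probe sets, no filter, a stricter filter (above the 75th percentile of the array), array medians subtracted, updated symbols, the control signal regressed out or as a second term, controls with under 13 G or C bases, and leaving out fetus 338, 283 or, chosen after seeing the data, 274. The fit on PCM1 and its alternatives were also added after seeing the data. The mean of a gene's probe sets took in all of them, also those that did not pass the filter.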

Additional observations from a re-analysis of the deposited data

How the results depend on the processing

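Results kept within 1.5 times of their count, or within the range left by omitting each fetus, with probe sets held fixed, for the median span (0.37 to 0.39), except as follows. The median span of the members was 0.36 with the mean of probe sets (0.38 for all genes), 0.48 unfiltered (0.45), 0.42 under the stricter filter (0.43), 0.44 with array medians subtracted (0.43), 0.37, just under that range, with the controls regressed out (0.36) and 0.42 without fetus 283 when the filter and the brightest probe sets were taken anew (0.42). A span of at least 1 was left in 1 member, KIF5B with its single probe set, with the mean of probe sets (1.3% of all genes) and in 0 with the controls regressed out (0.512%). In the following, percentages in brackets are again those of all genes. On the cell cycle index 3 members were higher with the mean of probe sets (0.516%), 2 each with array medians subtracted (1.78%), with the controls regressed out (2.86%), with the controls as a second term (2.05%) and without fetus 338 (1.26%), and 0 with the stricter filter (1.46%), where KIF22 and KIF18B were not tested. On the controls, 5 members were lower with the controls of under 13 G or C bases (8.38%), 7 were higher with the mean of probe sets (24.4%), 2 were higher without fetus 338 (11.3%), and 1 was higher (17.4%) and 7 lower (25.7%) with the stricter filter. On PCM1, 24 members were higher with no filter (17.1%), and 4 higher (23.6%) and 3 lower (43.6%) with the stricter filter. The stricter filter left 20 members, which lowers its counts by construction, and no filter brought in all 67; the cause of the other changes was not tested.

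The pairs PCM1 with KIF5B (r from 0.937 to 0.976), PCM1 with AKAP9 (0.820 to 0.917) and KIF11 with KIF23 (0.711 to 0.844) stayed called in each alternative in which both genes were measured, and IFT88 with IFT52 (0.187 to 0.354, adjusted permutation p from 0.0981 to 0.392) in none. With no filter, 8 pairs had both genes, and PCM1 with CEP290 was called too (r = 0.761, adjusted permutation p = 0.00012). No paired analysis was made, because groups were taken from the labels alone, which put no fetus in one. The study's own listing of fetuses by weight group and dam was not used for tests. Most members lay within the range of the background controls, which were not matched to the members' probes by G or C content. Unspecific signal may therefore limit what their spans show, and its share was not tested.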
